A study of Mus musculus with 18 samples.

Results

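The comparison described here is that of pair-fed with vehicle-treated mice, which asks what eating less did to the liver by itself. It takes 12 of the 18 livers of the series, 6 pair-fed (PairFed) and 6 vehicle (Vehicle), and the 13075 of 16245 listed genes that had at least 10 counts in at least 6 of those 12 livers. All mice were wild type (WT) males on a background given as C57BL/6 in the labels and as C57BL/6J in the methods of the study; they received a NASH diet, rich in fat and fructose, and were housed at about 29 °C, a temperature at which mice need little energy to keep warm, from 8 weeks of age. Before treatment they were randomized with body weight and composition matched, and then kept 1 to a cage. Vehicle mice were the controls without GDF15, the remaining 6 mice were injected with recombinant GDF15, a cytokine that suppresses appetite by way of the hindbrain, and pair-fed mice were given each day what the GDF15 mice had eaten on the previous day. The labels do not say which GDF15 dose set the ration or whether pair-fed mice were injected. Per the methods of the study, mice were killed fed, and no fast was part of the design. The hours between the last meal of the pair-fed mice and death are not given in the sources used here.

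As background, a fasting liver turns to burning fat and making ketone bodies under the nuclear receptor PPARA, and to making glucose under glucagon, cAMP and glucocorticoids, while insulin-driven fat synthesis under SREBP1c and ChREBP recedes. Cholesterol synthesis and uptake are set by SREBP2, which is released when the sterol content of the endoplasmic reticulum is low. Hepatocytes of an adult liver rarely divide, so transcripts of the mitotic machinery are scarce, and in a NASH liver they come from regenerating hepatocytes as well as from dividing ductal, immune and stromal cells. In bulk tissue, fewer cells of a type and less RNA per cell cannot be told apart.

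The vehicle libraries held 18059478 to 23215915 counts and the pair-fed libraries 17180057 to 35301853, with PairFed replicates 1 to 3 the smallest of their group and replicates 4 to 6 the largest; the labels name no batch. The 6 hepatocyte markers together took 77960.3 to 89147 CPM in vehicle and 68463 to 102051 CPM in pair-fed livers, and markers of pancreatic acinar cells and skeletal muscle reached at most 0.150 and 0.129 CPM (counts relative to the total of the library). All 5 Kupffer cell, 5 stellate cell and 5 sinusoidal endothelial markers passed the count filter, with median log2 fold changes of 0.16, −0.11 and 0.13. The markers of cholangiocytes, the cells of bile ducts, had lower means in pair-fed livers for 4 of 4 genes (median log2 fold change −0.69; summed 11.2 to 38.6 CPM in vehicle and 9.32 to 26.6 CPM in pair-fed livers), and so did 3 of 3 mesothelial markers (median −0.77; summed 4.07 to 12.9 CPM in vehicle and 1.28 to 9.38 CPM in pair-fed livers).

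No gene passed the test. With DESeq2 fitted to all 18 libraries, 0 of 13075 genes (0%) had both an adjusted p under 0.05 and a log2 fold change beyond 1 in either direction, and the lowest adjusted p of any gene was 0.305. At an unadjusted p under 0.05, 368 genes (2.81%) were lower and 260 (1.99%) were higher in pair-fed livers. The edgeR quasi-likelihood test also called 0 genes, with 394 lower and 220 higher at an unadjusted p under 0.05 and a lowest adjusted p of 0.969. When DESeq2 was fitted to the 12 livers alone, 3 genes had an adjusted p under 0.05, none of them beyond a log2 fold change of 1: Cd300lg, Snrk and Ccdc152, the latter pair named after their values were seen. Leaving out PairFed replicate 1 gave 2 calls, both lower in pair-fed livers, Lrtm2 and Scn7a, leaving out Vehicle replicate 3 gave 1, Sdcbp2, lower, and leaving out Vehicle replicate 6 gave 1, Zxda, a gene below the count filter. These genes too were named after their values were seen. Some subsets of replicates gave more calls, which are described further below. Without single libraries the lower count at an unadjusted p under 0.05 ranged from 208 (without Vehicle replicate 2) to 608 (without PairFed replicate 1) and the higher count from 172 (without Vehicle replicate 2) to 427 (without Vehicle replicate 6). GDF15 against the same 6 vehicle livers gave 771 calls (5.9%) among these 13075 genes in the 18-library fit, at a median standard error of 0.11, next to 0.10 for pair-fed against vehicle.

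The precision of the design was taken from the fit of the 18 libraries, in which spread among the GDF15 livers also enters each standard error. From the median standard error, an estimated log2 fold change of 0.20 (1.15-fold) would reach an unadjusted p of 0.05 in a typical gene. An estimate of 0.48 (1.40-fold) would pass a Bonferroni threshold over all 13075 genes. A true difference of either size would not always give such an estimate. Both limits depended on the level of the gene. For the 3162 genes with a mean normalized count of 10 to 100, a typical gene needed 0.46 and 1.09 log2 units respectively. For the 6784 genes between 100 and 1000 it needed 0.18 and 0.42, and for the 2731 genes between 1000 and 10000, 0.14 and 0.32. A normalized count is the deposited count divided by the size factor of its library.

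Most observed differences were below these limits. The median absolute log2 fold change was 0.07, the 90th percentile was 0.29, and 25 genes were beyond 1. The 95% interval of the fold change lay wholly within a log2 unit of 0 for 12273 genes (93.9%), and within 0.5 for 9880 (75.6%), so that the interval of most genes held no doubling and no fall of the same size, while 802 genes remained undecided. The direction was balanced over all genes (50.5% lower), but not at every level. Of the genes with mean counts of 10 to 100, 63.3% had a lower mean in pair-fed livers, and 187 against 50 had an unadjusted p under 0.05 in the lower and higher direction, next to 29 against 62 of the genes between 1000 and 10000.

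**Figure D1:**
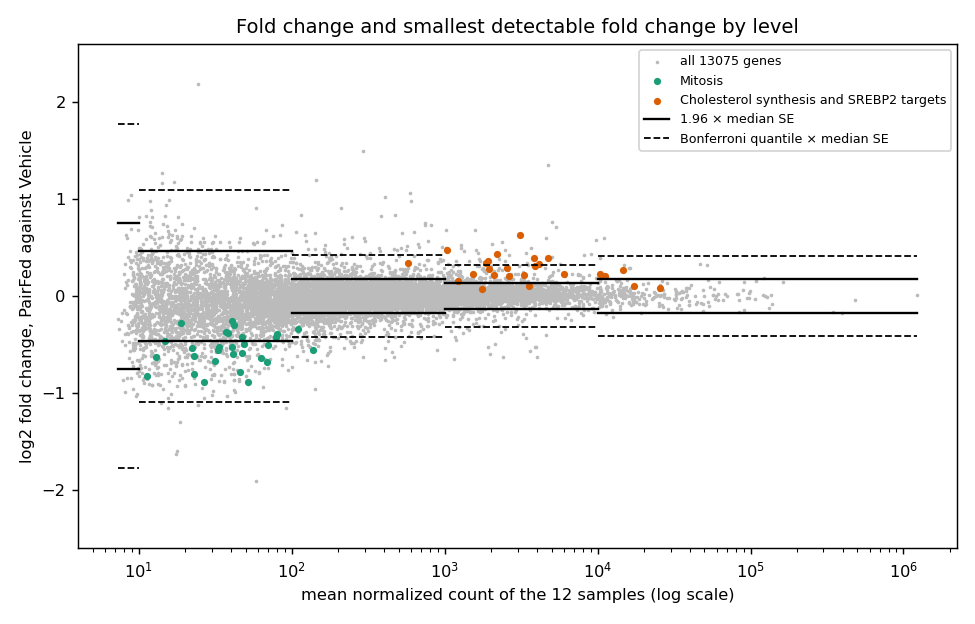
Log2 fold change of PairFed against Vehicle (vertical axis) by mean normalized count of the 12 livers (horizontal axis, log scale) for 13075 genes, one point each, with 2 gene lists coloured; solid and dashed lines give the smallest log2 fold change that a gene of median standard error in that range of levels needs for an unadjusted p of 0.05 and for the Bonferroni threshold. The mitosis genes sit below 0 among genes of low count and the cholesterol synthesis genes above 0 among genes of higher count.

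Groups that did not overlap were rare. In 14 genes (0.107%) all 6 pair-fed livers lay below all 6 vehicle livers, and in 16 (0.122%) all lay above. With 6 livers a group some genes separate in this way by chance, and the number to be expected was not computed here. Among genes averaging 50 or more normalized counts, the lowest unadjusted p values belonged to AI413582 and 9130409I23Rik, both annotated as protein-coding. AI413582 (chr17:27563573-27565756, GRCm38) had 102 to 150.0 normalized counts (median 123) in vehicle livers and 78.5 to 97.9 (median 91.4) in pair-fed livers. 9130409I23Rik (chr1:181051237-181060667) had 322 to 384 normalized counts (median 339.8) in vehicle livers and 239 to 307 (median 277) in pair-fed livers. Neither gene's groups overlapped, and their log2 fold changes were −0.48 ± 0.12 (SE; DESeq2 adjusted p = 0.305) and −0.33 ± 0.08 (adjusted p = 0.305).

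Next in the lower direction were the mitotic cyclin gene Ccnb2, the haem and choline transporter gene Flvcr1, the mitotic cyclin gene Ccna2, the secreted protease gene Htra1, the linker histone gene H1f2 and the secreted Wnt antagonist gene Frzb, with log2 fold changes from −0.89 (Ccnb2) to −0.31 (H1f2). Pdlim2, a cytoskeletal PDZ-LIM protein gene whose groups did not overlap either, had −0.47. In the higher direction the lowest p belonged to Klhdc10 (chr6:30401868-30455179), the substrate receptor of a ubiquitin ligase. Klhdc10 had 1103 to 1236 normalized counts (median 1178) in vehicle livers and 1266 to 1329.7 (median 1299) in pair-fed livers. The groups were apart although the difference was only 0.15 ± 0.04 (SE; DESeq2 adjusted p = 0.387). It was followed by Ss18, a subunit of BAF chromatin remodellers (0.17), Prickle1, a planar cell polarity gene (0.56), Col13a1, a transmembrane collagen (0.68), Cd300lg, a receptor of endothelial cells (0.43), Ugt2b34, a glucuronosyltransferase with close paralogs (0.22), Noc3l, a ribosome assembly factor (0.29), and Tent4a, a poly(A) polymerase (0.25). Slc26a10 also had groups that did not overlap (0.52). Reads shared between Ugt2b genes were divided by the authors' quantification, so the level of that gene is uncertain. Each gene in this paragraph had a DESeq2 adjusted p of at least 0.305.

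**Figure D2:**
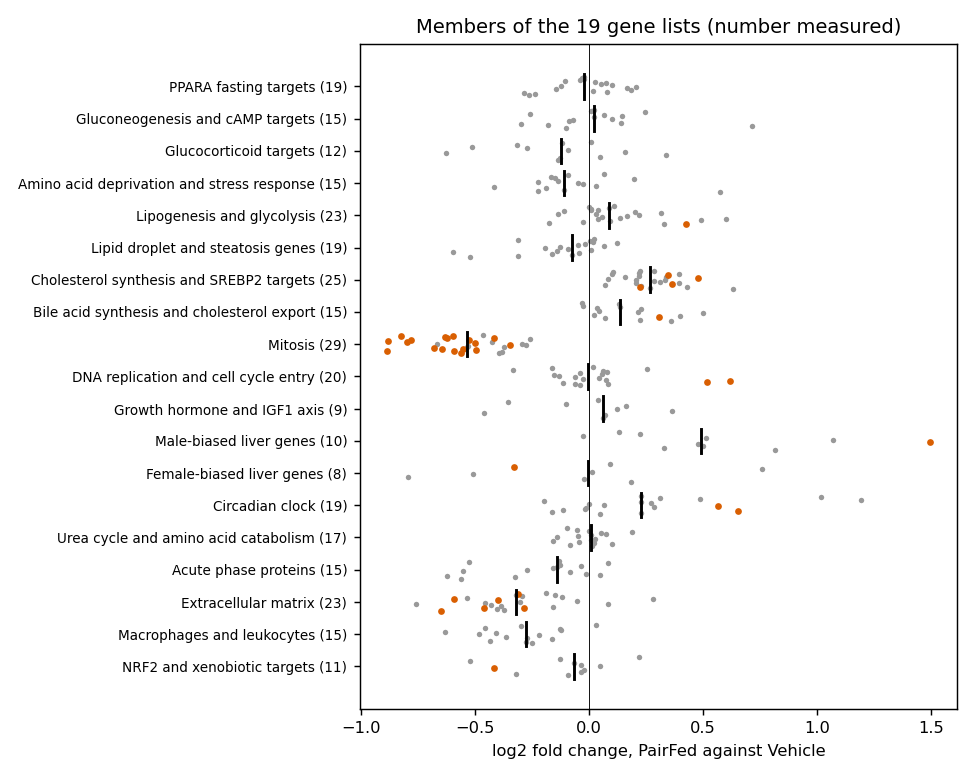
Log2 fold change of PairFed against Vehicle (horizontal axis) for every measured member of 19 gene lists (vertical axis, with the number measured); points are genes, orange where the unadjusted p was under 0.05, and black bars are medians. The mitosis list lies wholly below 0 and the cholesterol synthesis list wholly above it, whereas the 4 fasting lists at the top straddle 0.

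Fasting genes showed no common direction. Of 61 list entries in 4 lists, 0 had an unadjusted p under 0.05 in either direction, against 2.81% lower and 1.99% higher of all genes. The median log2 fold change was −0.02 over 19 PPARA targets (10 lower), 0.02 over 15 genes of gluconeogenesis and cAMP signalling (6 lower), −0.12 over 12 glucocorticoid targets (8 lower) and −0.11 over 15 genes of the amino acid deprivation response (11 lower), beside 0.00 over all genes. The PPARA targets lay mostly on opposite sides of 0 in the smaller and the larger pair-fed libraries. Against all vehicle livers, PairFed replicates 1 to 3 gave 17 of 19 lower (median −0.13, 3 lower at that threshold) and PairFed replicates 4 to 6 gave 15 higher (median 0.10, 3 higher at that threshold). In replicates 1 to 3 of all groups, 6 were lower at that threshold.

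A typical member needed a log2 fold change of 0.25 among PPARA targets, 0.43 in gluconeogenesis, 0.72 among glucocorticoid targets and 0.42 in the amino acid response to reach an unadjusted p of 0.05. Cpt1a, which admits fatty acids to mitochondria, had 11065 to 13666 normalized counts (median 12021) in vehicle livers and 8289 to 17793 (median 13683) in pair-fed livers. The pair-fed livers spread to both sides of the vehicle livers, and the log2 fold change was 0.08 (−0.24 to 0.39). Fgf21, the hormone that a fasting liver secretes, had a log2 fold change of −0.26 (−0.80 to 0.28). The pyruvate dehydrogenase kinase gene Pdk4 had −0.29 (−1.17 to 0.60), the lipoprotein lipase inhibitor gene Angptl4 −0.24 (−0.63 to 0.16), and the peroxisomal enzyme gene Ehhadh −0.15 (−0.34 to 0.04). Ppara itself had 0.17 (−0.08 to 0.42) and the omega-hydroxylase gene Cyp4a14 0.18 (−0.26 to 0.63).

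Pck1, which commits oxaloacetate to glucose synthesis, had 19693 to 41213 normalized counts (median 23434) in vehicle livers and 16219.6 to 37413 (median 20649) in pair-fed livers. The ranges largely coincided (log2 fold change −0.10, 95% interval −0.67 to 0.47). G6pc, whose product releases free glucose, had 3349 to 6139 normalized counts (median 3712) in vehicle livers and 2933 to 16068 (median 5619.9) in pair-fed livers. Its highest value came from PairFed replicate 4 alone, and its log2 fold change of 0.71 ± 0.40 (SE) had an interval of −0.07 to 1.49, so a difference of more than a log2 unit was not resolved. The coactivator gene Ppargc1a had 0.14 (−0.31 to 0.59), the growth factor binding protein gene Igfbp1 −0.18 (−1.22 to 0.86) and the insulin receptor substrate gene Irs2 −0.30 (−0.67 to 0.08). Among glucocorticoid targets, Fkbp5, a chaperone of the receptor, had −0.14 (−0.72 to 0.45), Tsc22d3 −0.13 (−0.97 to 0.71), the clock gene Per1 0.05 (−0.56 to 0.66), the phosphatase gene Dusp1 0.34 (−0.08 to 0.76) and the cell cycle inhibitor gene Cdkn1a −0.63 (−1.58 to 0.33). These intervals were wide, and 7 of the 12 glucocorticoid targets, against 93.9% of all genes, had an interval within a log2 unit of 0.

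The amino acid response was no better resolved. Atf5, one of its transcription factors, had −0.19 (−0.42 to 0.04), Chac1, which degrades glutathione, −0.42 (−0.99 to 0.16), Asns, asparagine synthetase, 0.58 (−0.24 to 1.40), and the pseudokinase gene Trib3 −0.22 (−0.61 to 0.16). The mouse's own Gdf15, the hormone whose effect on appetite the ration copies, had 595 to 1909 normalized counts (median 1054) in vehicle livers and 358 to 1651 (median 1115) in pair-fed livers. The ranges overlapped almost fully (log2 fold change −0.11, −0.88 to 0.67).

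**Figure D3:**
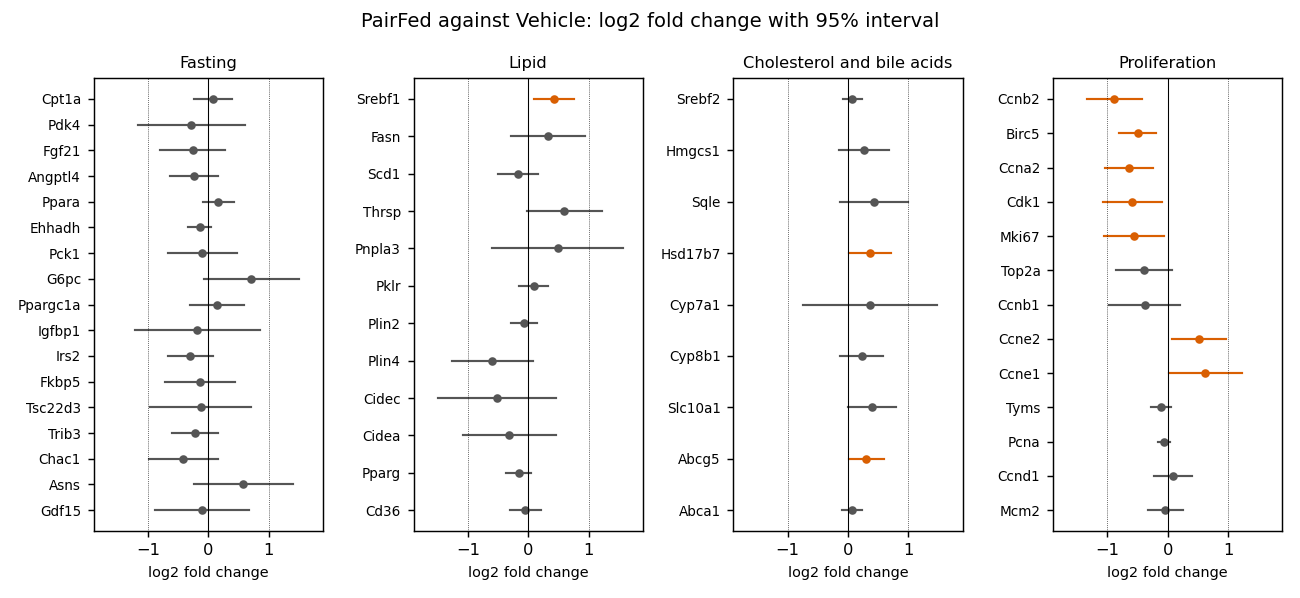
Log2 fold change of PairFed against Vehicle (horizontal axis) with its 95% interval for 51 genes of fasting, lipid, cholesterol and bile acid, and proliferation lists (vertical axis); orange marks an unadjusted p under 0.05 and dotted lines mark a log2 fold change of 1 in either direction. All fasting intervals include 0, and 5 mitosis genes lie wholly below it.

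No lipid gene passed the test in the fit of the 18 libraries either, and fits with a block are described further below. Of 23 genes of fat synthesis and glycolysis, 18 had a higher mean in pair-fed livers (median log2 fold change 0.09), with 1 (4.35%, against 1.99% of all genes) at an unadjusted p under 0.05 and 0 in the lower direction. Of 19 genes of lipid droplets and steatosis, 13 had a lower mean (median −0.07), with 0 at that threshold in either direction. The 1 gene was Srebf1, which encodes the main transcription factor of fat synthesis. Srebf1 had 5439.6 to 7731 normalized counts (median 7321) in vehicle livers and 5403 to 12881 (median 8985) in pair-fed livers. In 4 of 6 pair-fed livers it was above every vehicle liver and in 1 below, with a log2 fold change of 0.42 ± 0.17 (SE; DESeq2 unadjusted p = 0.0113, adjusted p = 0.998). Without PairFed replicate 4 no gene of that list had such a p, and without Vehicle replicate 6 there were 3.

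Its targets and companions did not share this p. Thrsp, a lipogenic regulator, had a log2 fold change of 0.60 (−0.02 to 1.22), the fatty acid synthase gene Fasn 0.33 (−0.28 to 0.94), Pnpla3, a lipase of the lipid droplet, 0.49 (−0.60 to 1.58), and the stearoyl-CoA desaturase gene Scd1 −0.17 (−0.51 to 0.16). The glycolytic gene Pklr, which encodes liver pyruvate kinase, was resolved more finely, at 0.09 (−0.15 to 0.33), an interval that lies within 0.5 of 0.

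Plin2, the major coat protein of lipid droplets in hepatocytes, had 22356 to 29779 normalized counts (median 25631) in vehicle livers and 20012 to 30938 (median 23901) in pair-fed livers. The ranges overlapped (log2 fold change −0.07, −0.29 to 0.14). Cidec, a droplet fusion protein whose gene is expressed in fatty liver, had 1433 to 2920.3 normalized counts (median 2469.7) in vehicle livers and 1111 to 1943 (median 1617) in pair-fed livers. Its ranges also overlapped, with 1 pair-fed liver below all vehicle livers, and its log2 fold change was −0.52 (−1.50 to 0.46). In the GDF15 livers, whose spread also enters that interval, Cidec had 45.0 to 510 normalized counts. Plin4 had −0.59 (−1.26 to 0.07), Plin3 −0.14 (−0.31 to 0.03), Cidea −0.31 (−1.09 to 0.46), the nuclear receptor gene Pparg −0.16 (−0.37 to 0.05) and the fatty acid transporter gene Cd36 −0.05 (−0.30 to 0.20). The mean level of the list in each liver, as log2 units from the vehicle mean, was −0.13 to 0.16 (median 0.01) in vehicle livers and −0.32 to −0.01 (median −0.15) in pair-fed livers, with 4 pair-fed livers below all vehicle livers.

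**Figure D4:**
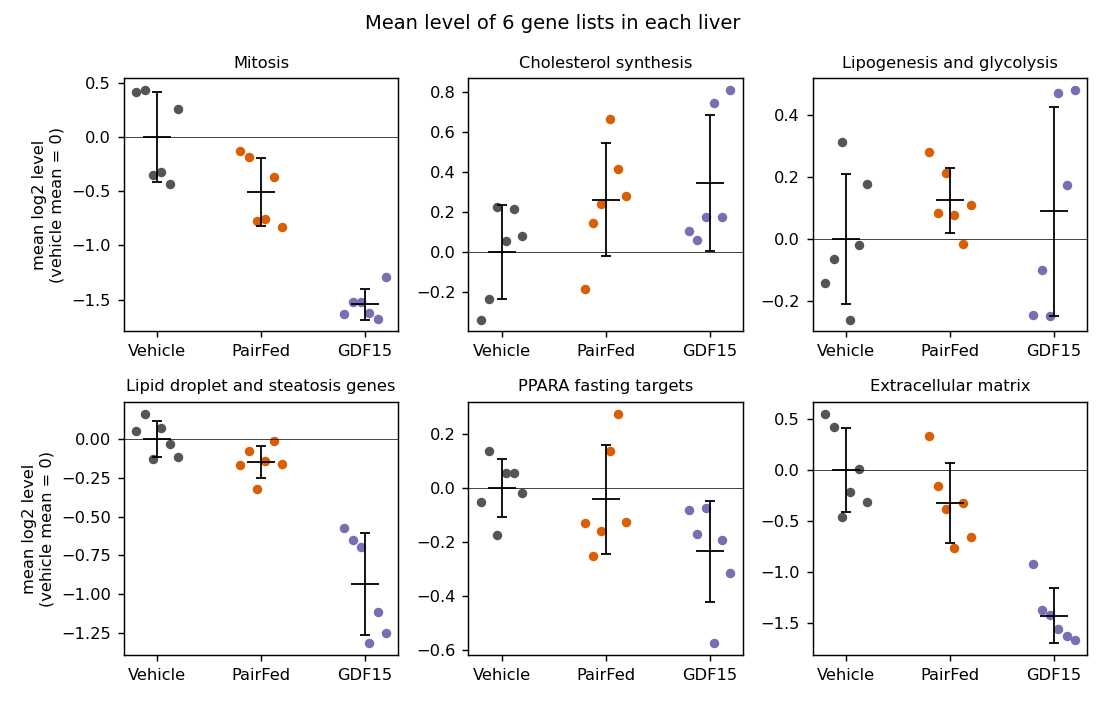
Mean of log2(normalized count + 1) over the members of 6 gene lists in each liver, relative to the mean of the Vehicle group (vertical axis, log2 units), for 6 livers in each of the 3 groups; points are livers in order of replicate number, bars the mean with SD. Vehicle and PairFed overlap in all 6 lists, and the 6 GDF15 livers lie below both for mitosis, lipid droplet and extracellular matrix genes.

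All 25 measured genes of cholesterol synthesis and SREBP2 targets had a higher mean in pair-fed livers, with log2 fold changes of 0.07 to 0.63 (median 0.27, against 0.00 over all genes), and 4 had an unadjusted p under 0.05, which is 16% against 1.99% of all genes. None passed after adjustment in the fit of the 18 libraries (lowest DESeq2 adjusted p = 0.998), and fits with a block are described further below. The list was chosen with earlier results of these data known, so the 16% is no independent test. The 4 included Hsd17b7, a sterol reductase gene, Mvd, a decarboxylase gene of the mevalonate pathway, and Nsdhl, which acts in the late sterol steps; Mvd and Nsdhl were named after their values were seen. Hsd17b7 (chr1:169949535-169969241) had 1265 to 2088 normalized counts (median 1741) in vehicle livers and 1324 to 2846 (median 2114) in pair-fed livers. In 3 pair-fed livers it was above all vehicle livers, and the log2 fold change was 0.36 ± 0.18 (SE; DESeq2 unadjusted p = 0.0398, adjusted p = 0.998).

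The squalene epoxidase gene Sqle had 1273 to 2367 normalized counts (median 1883) in vehicle livers and 1319.8 to 3790.2 (median 2452) in pair-fed livers. In 4 pair-fed livers it exceeded every vehicle liver, and the log2 fold change was 0.43 ± 0.29 (SE; 95% interval −0.14 to 1.00). The HMG-CoA synthase gene Hmgcs1 had 0.27 (−0.14 to 0.68) and the regulator gene Srebf2 itself 0.07 (−0.09 to 0.23). The mean level of the list was −0.34 to 0.22 (median 0.07) in vehicle livers and −0.18 to 0.66 (median 0.26) in pair-fed livers, so 4 pair-fed livers were above all vehicle livers and 1, replicate 1, was below the vehicle median.

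The count of 4 rested on particular libraries. It was 1 with edgeR, 1 in replicates 1 to 3 of all groups and 11 in replicates 4 to 6 of all groups. It was 10 without PairFed replicate 1 and 8 without Vehicle replicate 5. It was 1 when PairFed replicate 3, 4 or 5 or Vehicle replicate 1 or 2 was left out, and 2 without PairFed replicate 6. With all vehicle livers kept, the 3 smaller pair-fed libraries (replicates 1 to 3) gave 0 and a median log2 fold change of 0.05, and the 3 larger ones 11 and 0.47. The part of library size in this was not tested.

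Of 15 genes that turn cholesterol into bile acids or export it, 13 had a higher mean (median log2 fold change 0.14), and 1, the sterol exporter gene Abcg5, had an unadjusted p under 0.05, which is 6.67% against 1.99% of all genes (0.31 ± 0.15, SE; DESeq2 adjusted p = 0.998). That count was 0 without PairFed replicate 3, 4 or 6 or Vehicle replicate 1 or 2, 2 without Vehicle replicate 5, and 3 without PairFed replicate 1 or 2 or Vehicle replicate 3. Cyp7a1, the rate-limiting enzyme of bile acid synthesis, had 554 to 3702 normalized counts (median 1331) in vehicle livers and 428 to 5717 (median 1341) in pair-fed livers. Its ranges coincided (0.36, 95% interval −0.75 to 1.47), with the highest value of each group in Vehicle replicate 6 and PairFed replicate 4. Cyp8b1, which sets the share of cholic acid, had 0.22 (−0.13 to 0.58), the bile acid uptake transporter gene Slc10a1 0.40 (−0.01 to 0.80) and the cholesterol efflux gene Abca1 0.07 (−0.10 to 0.24).

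Of the 19 lists, mitosis genes had the largest median difference, and all 29 measured genes of 30 listed had a lower mean in pair-fed livers, with log2 fold changes of −0.89 to −0.26 (median −0.54), and 18 of them (62.1%) had an unadjusted p under 0.05, against 2.81% of all genes. None passed after adjustment (lowest DESeq2 adjusted p = 0.394), and with edgeR 17 had an unadjusted p under 0.05. Of the 29, 27 had a mean normalized count between 10 and 100, the range in which 5.91% of all genes were lower at that threshold and the median log2 fold change was −0.08. The members were read in the same 12 livers and vary together, so their number does not add replicates. They were also chosen with earlier results of these data known, so the 62.1% describes the list and is no independent test.

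Ccnb2 (chr9:70407692-70421547), a cyclin of the mitotic kinase CDK1, had 44.1 to 96.6 normalized counts (median 65.6) in vehicle livers and 30.5 to 44.2 (median 36.4) in pair-fed livers. In 5 of 6 pair-fed livers it was below every vehicle liver, and the sixth exceeded the lowest vehicle liver only just. The log2 fold change was −0.89 ± 0.23 (SE; 95% interval −1.34 to −0.43; DESeq2 unadjusted p = 0.000146, adjusted p = 0.394). Birc5 (survivin), an inhibitor of cell death that also serves the chromosomal passenger complex, had 45.8 to 67.7 normalized counts (median 56.1) in vehicle livers and 34.1 to 48.5 (median 39.9) in pair-fed livers. Again 5 of 6 pair-fed livers lay below all vehicle livers, at a log2 fold change of −0.49 ± 0.16 (unadjusted p = 0.00157 with DESeq2). Ccna2, the cyclin of S phase and mitotic entry, had 45.0 to 113 normalized counts (median 77.8) in vehicle livers and 42.0 to 58.2 (median 48.3) in pair-fed livers. Here the low vehicle livers reached into the pair-fed range, and the log2 fold change was −0.64 ± 0.21 (unadjusted p = 0.00172 with DESeq2). Mki67, the source of the Ki-67 antigen used to count cycling cells, had 91.1 to 247 normalized counts (median 155) in vehicle livers and 80.3 to 170.2 (median 108) in pair-fed livers. The ranges overlapped widely, with a log2 fold change of −0.56 ± 0.25 (unadjusted p = 0.0249 with DESeq2). The kinase gene Cdk1 had −0.59 ± 0.25, the topoisomerase gene Top2a −0.39 ± 0.24 and the cyclin gene Ccnb1 −0.38 ± 0.30 (SE), of which only Cdk1 had an unadjusted p under 0.05.

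The mean level of the mitosis list was −0.44 to 0.43 (median −0.03) in vehicle livers and −0.83 to −0.13 (median −0.57) in pair-fed livers. The vehicle livers fell into a higher set (replicates 1, 2 and 6) and a lower set (replicates 3, 4 and 5), and 3 pair-fed livers lay below all of them. The number of members with an unadjusted p under 0.05 was 8 without Vehicle replicate 2, 11 without PairFed replicate 6 and 22 without PairFed replicate 1. Replicates 1 to 3 of all groups gave a median log2 fold change of −0.55 (6 members under that p) and replicates 4 to 6 −0.53 (5 members). Set against all vehicle livers, the 3 smaller pair-fed libraries gave −0.39 (5 members under that p) and the 3 larger ones −0.73 (18 members). Bile duct and mesothelial markers had medians of −0.69 and −0.77 in the same livers, the ranges of their summed levels are given above, and their part in the result was not tested.

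Promoters of 3 mitosis genes and 1 cholesterol gene are shown, chosen from lists whose members nearly all had means on 1 side of 0 and because their windows hold the motif searched: each of the 3 mitosis windows has a CHR, and Hmgcs1 has the only sterol element among the windows of cholesterol genes. Genes expressed in G2 and M phase often carry a CHR element (TTTGAA), bound by the MuvB complexes DREAM and B-MYB-MuvB, near CCAAT boxes, bound by NF-Y, whereas SREBP binds sterol response elements such as TCACNCCAC. RefSeq promoter windows (GRCm38.p6, 250 bases before to 50 after the gene start) matched 24 of the 29 mitosis genes, and both strands were searched, each motif separately. Each line gives 200 bases before to 20 after the gene start, 5′ to 3′ on the strand of the gene, with CHR and CCAAT letters of either strand (ATTGG is CCAAT on the other strand), or for Hmgcs1 the sterol element alone, in capitals.
Ccnb2, chr9:70421535-70421754, minus strand: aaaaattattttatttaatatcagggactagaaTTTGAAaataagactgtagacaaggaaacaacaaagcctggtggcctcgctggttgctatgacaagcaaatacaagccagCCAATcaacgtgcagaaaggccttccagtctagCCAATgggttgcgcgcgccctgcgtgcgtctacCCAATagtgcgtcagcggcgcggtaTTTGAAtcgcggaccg
Cdk1, chr10:69352893-69353112, minus strand: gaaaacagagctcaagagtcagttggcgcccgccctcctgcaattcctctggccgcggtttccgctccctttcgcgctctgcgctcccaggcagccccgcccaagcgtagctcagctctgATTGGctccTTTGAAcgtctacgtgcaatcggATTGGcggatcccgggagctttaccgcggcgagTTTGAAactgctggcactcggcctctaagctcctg
Mki67, chr7:135716360-135716579, minus strand: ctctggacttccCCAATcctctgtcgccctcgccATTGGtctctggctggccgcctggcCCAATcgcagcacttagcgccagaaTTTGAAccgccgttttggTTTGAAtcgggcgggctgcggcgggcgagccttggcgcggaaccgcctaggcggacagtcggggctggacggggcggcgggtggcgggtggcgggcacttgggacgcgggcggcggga
Hmgcs1, chr13:119690151-119690370, plus strand: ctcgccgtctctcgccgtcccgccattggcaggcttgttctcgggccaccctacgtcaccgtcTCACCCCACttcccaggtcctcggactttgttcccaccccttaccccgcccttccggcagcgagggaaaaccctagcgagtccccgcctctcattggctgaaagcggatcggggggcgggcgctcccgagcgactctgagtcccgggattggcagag
A CHR was in 76.0% of the 25 mitosis windows, in 5.88% of the 17 windows of DNA replication genes and in 17.9% of all 32851 windows. A CHR together with a CCAAT box was in 68.0% of mitosis windows and 6.95% of all. The sterol element was in 1 of 20 windows of cholesterol genes (5.00%) and in 1.24% of all. A match describes letters only; Ccna2 and Sqle had no entry.

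Genes of DNA replication and cell cycle entry lay on both sides of 0. Of 20 genes, 10 had a lower and 10 a higher mean, with a median log2 fold change of 0.00, and 0 had an unadjusted p under 0.05 in the lower direction. The 2 genes with such a p (10%, against 1.99% of all genes) were higher, and both are E cyclins, which drive entry into S phase. Ccne2 had 18 to 27.1 normalized counts (median 20.5) in vehicle livers and 16.6 to 37.5 (median 32.2) in pair-fed livers. In 5 of 6 pair-fed livers it was above all vehicle livers, and in the sixth below them (0.52 ± 0.23, SE; DESeq2 adjusted p = 0.998). Ccne1 had 0.62 ± 0.31 (DESeq2 adjusted p = 0.998). With edgeR the unadjusted p was 0.0238 for Ccne2 and 0.0577 for Ccne1. Without PairFed replicate 3, 4 or 6 no gene of the list was higher at that threshold; without Vehicle replicate 1, 3, 4, 5 or 6 the count was 1. The replication clamp gene Pcna had −0.06 (−0.17 to 0.04), the thymidylate synthase gene Tyms −0.12 (−0.28 to 0.05), the helicase subunit gene Mcm2 −0.04 (−0.33 to 0.25) and the G1 cyclin gene Ccnd1 0.08 (−0.23 to 0.39), all with intervals inside 0.5 of 0.

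**Figure D5:**
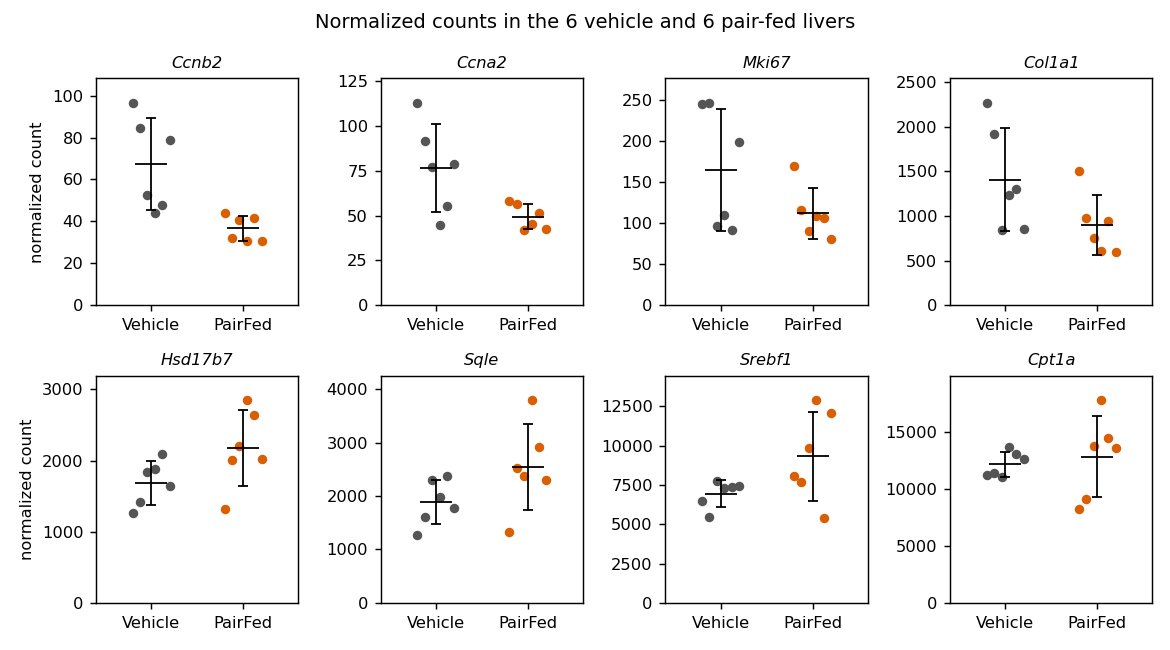
Normalized counts (vertical axis, from 0) of 8 genes in the 6 Vehicle and 6 PairFed livers; points are livers in order of replicate number, bars the mean with SD. Of the PairFed livers, 5 lie below all Vehicle livers for Ccnb2 and 4 lie above all of them for Sqle and for Srebf1, and those of Cpt1a lie on both sides.

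Of 23 extracellular matrix genes, whose products build scar tissue in fibrosis, 21 had a lower mean in pair-fed livers (median log2 fold change −0.32), and 6 (26.1%, against 2.81% of all genes) had an unadjusted p under 0.05, with 0 in the higher direction and none after adjustment in the fit of the 18 libraries. This list was likewise chosen with earlier results of these data known, so the 26.1% is no independent test. Col1a1, the main chain of fibrillar collagen, had 840.2 to 2267 normalized counts (median 1272) in vehicle livers and 594 to 1501 (median 849) in pair-fed livers. In 3 pair-fed livers it was below all vehicle livers, and the log2 fold change was −0.65 ± 0.31 (SE; DESeq2 unadjusted p = 0.0389, adjusted p = 0.998). Col3a1 had −0.37 (−0.80 to 0.05) and Timp1, an inhibitor of matrix proteases, −0.40 (−1.21 to 0.41). The mean level of the list was −0.46 to 0.55 (median −0.10) in vehicle livers and −0.76 to 0.33 (median −0.35) in pair-fed livers.

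Single libraries set this count. It was 15 without PairFed replicate 1, 12 without Vehicle replicate 3 and 11 without Vehicle replicate 6. It was 2 without PairFed replicate 3 or 4, and 1 without PairFed replicate 6 or Vehicle replicate 1 or 2. The 3 smaller pair-fed libraries gave 0 and a median of −0.15, and the 3 larger ones 18 and −0.68, a difference whose source was not tested. Genes of macrophages and leukocytes had a lower mean for 14 of 15 (median −0.28) with 0 at an unadjusted p under 0.05. Against all vehicle livers, the 3 smaller pair-fed libraries gave a median of 0.05 with 0 lower at that threshold. The 3 larger ones gave −0.62 with 8 lower. Replicates 1 to 3 of all groups gave a median of −0.04 and replicates 4 to 6 −0.58. Within that list the lipid-associated macrophage genes Trem2 and Gpnmb had −0.28 (−0.82 to 0.27) and −0.43 (−1.31 to 0.44), and Adgre1, which encodes F4/80, −0.25 (−0.66 to 0.16), while the 5 markers of resident Kupffer cells had a median of 0.16.

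In the lists outside these themes, no gene passed the test. Of 19 clock genes, 2 (10.5%, against 1.99% of all genes) were higher at an unadjusted p under 0.05: Per2 (0.66 ± 0.26, SE) and, named after its value was seen, Cry1 (0.56 ± 0.24), while the core activator gene Arntl had −0.11 (−1.30 to 1.07), Nr1d1 −0.16 (−0.47 to 0.14) and the output gene Dbp 0.23 (−0.53 to 0.99). The clock count was 1 without PairFed replicate 4 or Vehicle replicate 2 or 3, 3 without PairFed replicate 5 or Vehicle replicate 6, and 4 without PairFed replicate 1 or 2. The 10 male-biased genes had a median of 0.49 with 1 gene (10%) higher at that threshold, Cyp4a12b, named after its value was seen. That count was 0 without PairFed replicate 2 or 6 or Vehicle replicate 1, 2, 4, 5 or 6, 2 without PairFed replicate 1, and 4 without Vehicle replicate 3. The 8 measured female-biased genes had a median of 0.00 with 1 lower (12.5%, against 2.81% of all genes; Cyp17a1, likewise named); the count was 0 without PairFed replicate 2 or 5 or Vehicle replicate 6 and 2 without PairFed replicate 1. Both sets depend on the pattern of growth hormone secretion, and the male-biased Elovl3 had 0.33 (−0.68 to 1.34). Igf1, the hormone that growth hormone induces in liver, had 4389 to 6534 normalized counts (median 5291) in vehicle livers and 4140.3 to 6665 (median 5519) in pair-fed livers. Its ranges coincided, and the log2 fold change was 0.06 with an interval of −0.17 to 0.30; over the 9 genes of that axis, among them Igfbp2 (0.07) and Socs2 (−0.46), the median was 0.06 and 0 had such a p.

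Genes of the urea cycle and amino acid breakdown were tightly resolved. Of 17 genes, 16 had a 95% interval within 0.5 of 0, against 75.6% of all genes, the median log2 fold change was 0.01, and 0 had an unadjusted p under 0.05. Cps1, the entry enzyme of the urea cycle, had 0.01 (−0.29 to 0.31) and Arg1, its final enzyme, −0.08 (−0.26 to 0.09). Acute phase genes had a lower mean for 13 of 15 (median −0.14, 0 at that threshold), with Saa1 at −0.56 (−2.07 to 0.94). Lcn2 was left untested by DESeq2 because a library lay far from its fitted count. The highest Lcn2 count, 7558, was in GDF15 replicate 4, outside this comparison. Vehicle livers had 971 to 1844 and pair-fed livers 615 to 2318. Saa1 was also highest in GDF15 replicate 4, at 68458, and that liver is part of the fit behind its interval. Vehicle livers had 2933 to 5779 Saa1 counts and pair-fed livers 2018 to 4039. Of 11 genes of the NRF2 and xenobiotic response, 9 had a lower mean (median −0.06), and 1 (9.09%, against 2.81% of all genes) was lower at that threshold, Hmox1, which encodes haem oxygenase and was named after its value was seen (−0.42 ± 0.21, SE). The count was 0 without PairFed replicate 4, 5 or 6 or Vehicle replicate 1, 2 or 4, and 2 without PairFed replicate 1 or 2. The list held the quinone reductase gene Nqo1 at −0.09 (−0.40 to 0.22) and Cyp2b10, a gene with close paralogs, at −0.32 (−1.52 to 0.88).

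The same lists in GDF15-treated livers give the scale. Both comparisons use the same 6 vehicle livers, so their values are set side by side and not correlated, and the difference between pair-fed and GDF15 livers was not tested here. The median log2 fold change against vehicle was −0.54 with pair-feeding and −1.77 with GDF15 for mitosis genes, and −0.32 and −1.31 for extracellular matrix genes. It was −0.07 and −0.56 for lipid droplet genes, 0.09 and 0.14 for fat synthesis, 0.27 and 0.38 for cholesterol synthesis, and −0.02 and −0.16 for PPARA targets. For gluconeogenesis the values were 0.02 and 0.76, for glucocorticoid targets −0.12 and 0.66, and for the urea cycle 0.01 and 0.61. The GDF15 livers differed among themselves. Their mean level for gluconeogenesis was 0.11 to 0.29 in replicates 1 to 3 and 0.67 to 1.10 in replicates 4 to 6. For glucocorticoid targets it was 0.33 to 1.49, highest in replicate 4, and for the urea cycle 0.58 to 0.89. Among single genes, Ccnb2 had −0.89 and −2.15, Col1a1 −0.65 and −2.51, Cidec −0.52 and −3.40, and Sqle 0.43 and 0.37. Cidec had 292 to 510 normalized counts in GDF15 replicates 1 to 3 and 45.0 to 59.8 in replicates 4 to 6. Sqle had 3931 and 3869 in GDF15 replicates 4 and 6, against 1607 to 1809 in the other GDF15 livers.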

How the data were processed

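Liver RNA from 18 mice was sequenced with a directional kit. The deposited table holds estimated counts per gene symbol, which the authors made by trimming with Trim Galore and quantifying with Salmon (build mm10 named in the processing notes; versions and transcriptome not given in the sources used here) and which are whole numbers in the file; the lowest row total is 5. Salmon divides reads shared by near-identical genes, so paralogs are uncertain.

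Groups came from the sample labels. DESeq2 1.42.0 (R 4.3.3; median-of-ratios size factors, group as the only term, Wald test, unshrunken fold changes, independent filtering at 0.05) was fitted to all 18 samples, which share 1 estimate of the spread, as DESeq2 was the study's own tool; edgeR 4.0.16 (quasi-likelihood, TMM) was an alternative. Benjamini-Hochberg adjustment ran over all genes of the table. A call needs an adjusted p under 0.05 and an absolute log2 fold change above 1. Smallest detectable changes are the standard error times the normal quantile for an unadjusted threshold of 0.05 or for the Bonferroni threshold. They are the smallest estimates that cross the threshold, and a true difference of that size would not always cross it. DESeq2 left 3 genes without a p because of an extreme count. The labels number the samples within a group without naming animals, and the study gives 6 mice per group for the liver sequencing. The p-values therefore measure the spread between mice, which may be technical in part. No block by sample number was used. The tests were checked on simulated counts, drawn without any batch or replicate effect. That check therefore cannot speak to differences between subsets of replicates.

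Named genes were those marked as central in the lists, the 2 members of lowest unadjusted p of each fasting, lipid, cholesterol and proliferation list, the 8 genes of lowest p in each direction among those averaging 50 or more normalized counts, and the 3 largest differences in each direction among such genes whose groups do not overlap. The gene lists and members were chosen with earlier results of these data known. Gene coordinates are from GENCODE M21 (GRCm38), matched by symbol (12858 of 13075); promoters are from RefSeq. Alternatives were another tool, normalization, filter, sample set or block, and leaving out each sample; those with only PairFed replicates 1 to 3 or 4 to 6, and the block in 12 samples, were chosen after seeing the data. A few list genes are not reported by name here. Several GDF15 doses are named in the labels without the dose of each mouse.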

Additional observations from a re-analysis of the deposited data

Results flagged for a closer look

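Single livers stood apart from the other 5 of their group in 19 of 238 sets of values (named genes and list means, each group alone), by a gap to the nearest liver above Dixon's 95% critical share of the group's range; chance would pick about 1 in 20, or 11.9. Most were in Vehicle replicate 6 and PairFed replicate 4.

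In Vehicle replicate 6, G6pc had 6139 (against 3349 to 4013 in the other 5) normalized counts, the glucocorticoid target Tsc22d3 2179 (against 435 to 918 in the other 5), the clock gene Per1 937 (against 401 to 497 in the other 5), Cyp7a1 3702 (against 554 to 1484 in the other 5) and Cyp2b10 51.1 (against 4.24 to 18.6 in the other 5). Its list means, in log2 units from the vehicle mean, were 0.22 (against −0.09 to 0.01 in the other 5) for gluconeogenesis and cAMP targets, −0.40 (against 0.02 to 0.14 in the other 5) for the amino acid deprivation response and −0.17 (against −0.01 to 0.07 in the other 5) for acute phase genes.

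In PairFed replicate 4, high values were those of G6pc at 16068 (against 2933 to 5903 in the other 5) normalized counts, Per1 at 1171 (against 382 to 504 in the other 5), Cyp7a1 at 5717 (against 428 to 1914 in the other 5) and Fkbp5 at 1113 (against 379 to 619 in the other 5). PairFed replicate 5 had the lowest Ccne2, 16.6 (against 29.9 to 37.5 in the other 5), and the lowest mean of DNA replication genes, −0.30 (against 0.07 to 0.14 in the other 5) log2 units. The male-biased Hsd3b5 was highest in Vehicle replicate 3, 58.2 (against 0 to 16.7 in the other 5) normalized counts, and in PairFed replicate 6, 78.5 (against 4.31 to 20.6 in the other 5). The lipid droplet gene Pnpla3 was highest in Vehicle replicate 3, 264 (against 70.4 to 133 in the other 5), Srebf2 in Vehicle replicate 5, 2030.0 (against 1602 to 1753 in the other 5), and the female-biased Cyp2b9 was lowest in Vehicle replicate 1, 1561 (against 2449.7 to 2841 in the other 5).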

How the results depend on the processing

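The count of 0 calls held with edgeR, in the fit of the 12 livers alone, under TMM scaling, with the count filter applied before the fit, without independent filtering, without the fold-change threshold and with only PairFed replicates 1 to 3. Counted over all genes of the table, it was 3 in replicates 1 to 3 of all groups, 11 in replicates 4 to 6, 18 with only PairFed replicates 4 to 6 against all vehicle livers, and 0 to 2 on leaving out 1 library (2 without PairFed replicate 1, 1 without Vehicle replicate 3 or 6). Ntrk2, named after its values were seen, averaged 429 normalized counts and was lower in 2 of these subsets. Its log2 fold change was −1.70 in replicates 4 to 6 of all groups (DESeq2 adjusted p = 7.6e-08). With only PairFed replicates 4 to 6 it was −1.77 (DESeq2 adjusted p = 7.1e-05). Genes lower at an unadjusted p under 0.05 numbered 220 in replicates 1 to 3 of all groups, 863 with only PairFed replicates 4 to 6 and 208 to 608 on leaving out 1 library (608 without PairFed replicate 1, 242 without PairFed replicate 6, 238 without Vehicle replicate 1, 208 without Vehicle replicate 2). Genes higher numbered 596 with only PairFed replicates 4 to 6 and 172 to 427 on leaving out 1 library (404 without PairFed replicate 1, 172 without Vehicle replicate 2, 427 without Vehicle replicate 6). The causes were not tested. With replicate number as a block, 2 genes were called, 1 of them below the count filter, and 4 with the block in the 12 livers alone; mitosis, cholesterol and matrix members with an unadjusted p under 0.05 numbered 18, 12 and 15 with the block in all 18 libraries. The 4 genes called in the 12 livers alone were Shc2, Nat8f7, Fndc10 and Scn7a, named after their values were seen. In that fit of 12 livers 28 genes had a DESeq2 adjusted p under 0.05, and beside those 4 the list members and other genes of the report among them were Cidec, Col1a1, Col1a2, Col3a1, Hsd17b7, Mvd, H1f2 and Cd300lg. The numbers mark no pairing that the labels state: deviations from the group means of same-numbered vehicle and pair-fed livers correlated at −0.01 to 0.53, above 0.1 in 4 of 6 pairs, and 1 of 6 pair-fed livers correlated best with the vehicle liver of its own number.

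List medians changed sign in 44 of 418 recomputed values, in 9 of 19 lists, while 10 lists kept theirs under all 22 alternatives. The fold changes of named genes changed sign in 89 of 2221. The median detectable change and the number of intervals within a log2 unit of 0 stayed within 1.5 times of their values wherever they were computed; edgeR gives no standard error and so no value for them. The count of genes whose groups do not overlap stayed within 1.5 times under total-count scaling and with a mean of 50 or more. What the fit of the 18 libraries left unresolved were mainly genes under 100 normalized counts and genes of variable level, such as the glucocorticoid, clock and sex-biased lists. Spread within the GDF15 group also enters those standard errors. In the fit of the 12 livers alone the median detectable change was 0.20, and 12296 intervals lay within a log2 unit of 0.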

Other observations

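Cells other than hepatocytes were followed by their markers, and no marker passed the test. The 5 sinusoidal endothelial markers had a median log2 fold change of 0.13 in pair-fed against vehicle livers, with 2 higher at an unadjusted p under 0.05, the lectin gene Clec4g (0.33 ± 0.13, SE) and the VEGF receptor gene Kdr (0.30 ± 0.15). Of all genes, 1.99% were higher and 2.81% lower at that threshold. Among cholangiocyte markers the keratin genes Krt7 (−0.76 ± 0.30) and Krt19 (−0.78 ± 0.35) and among mesothelial markers the transcription factor gene Wt1 (−1.02 ± 0.34) were lower at that threshold. On leaving out 1 library, the endothelial count was 1 to 2, the cholangiocyte count ran from 0 (without Vehicle replicate 1) to 4 of 4 (without PairFed replicate 1), and the mesothelial count from 1 to 3 of 3 (without PairFed replicate 4). The median was 0.31 for 2 measured T cell, 0.28 for 4 B cell, −0.23 for 2 neutrophil and −0.09 for 3 erythroid markers, and −0.76 for the 1 measured adipocyte marker. Of the 2 neutrophil markers, 1 was lower at an unadjusted p under 0.05, and 0 to 1 on leaving out 1 library. The T cell, B cell and neutrophil markers summed to at most 3.85, 9.10 and 4.76 CPM in any of the 12 livers. These genes were named after their values were seen.

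Among the genes whose groups did not overlap, some differences were small next to the level of the gene. The genes that follow were named after their values were seen. Eif3c, a translation initiation factor gene, had 2888 to 3081 normalized counts (median 3032) in vehicle livers and 3107 to 3331 (median 3144) in pair-fed livers (log2 fold change 0.08 ± 0.04, SE). Dctn1, a dynactin subunit gene, had 1056 to 1097 normalized counts (median 1089.8) in vehicle livers and 957 to 1054 (median 992) in pair-fed livers (−0.13 ± 0.05). Trf, which encodes serum transferrin, had 351210 to 379735 normalized counts (median 369552) in vehicle livers and 306635 to 340798 (median 332244) in pair-fed livers (−0.16 ± 0.09), with a DESeq2 unadjusted p of 0.0742 although every pair-fed liver was below every vehicle liver. The mitotic kinesin gene Kif2c was the mitosis gene without overlap, with 20.4 to 37.9 normalized counts (median 27.2) in vehicle livers and 9.89 to 19.4 (median 17.9) in pair-fed livers (−0.80 ± 0.26).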
